A study of Mus musculus with 3 samples.

Results

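The cells described are 68 regulatory T cells (Tregs) of mouse epidermis with the highest share of transcripts from 6 genes: Fos, Fosb, Fosl2 and Atf3, which encode AP-1 or AP-1-related transcription factors, and Irs2 and Rgcc. They are called AP-1-high cells below. They were chosen from 271 kept cells among 360 epidermal barcodes, out of 10414 kept cells in the 3 libraries of the series. Kept barcodes had 500 UMIs or more (unique molecular identifiers, each counting 1 captured transcript), 300 genes or more, no more than 10% mitochondrial UMIs, and 2 or more UMIs summed over Cd3d, Cd3e, Cd3g and Cd4. The score was the UMIs of the 6 genes divided by all UMIs of the cell, and a cell was AP-1-high when its score was above 0 and at or above the 75th percentile. The other 203 kept epidermal cells were the comparison. Because the score chose the cells, its 6 genes are described without being a finding.

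The series holds single-cell RNA libraries of Tregs from back epidermis, from dermis and from lymph node of adult mice, with 1 library per tissue. The mice were of a Foxp3 reporter strain that the labels call FOXP3-EGFP (C.Cg-Foxp3tm2Tch/J), which all 3 groups share. Cells were sorted as GFP+, CD4+, CD3+ and CD45+ after thermolysin had parted the skin layers, dermis had been digested with collagenase and lymph node had been mashed. Skin libraries used the 10x 3′ v3 kit and the lymph node library the v2 kit, and the sources used here do not give the number, sex or exact age of the animals. With 1 library, cells are not replicates, so no test was run. Intervals given in parentheses are 95% intervals and cover counting error only.

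AP-1 is a family of paired transcription factors built from Fos, Jun, ATF and Maf proteins. Fos and Fosb are immediate early genes: their transcripts appear within minutes of a stimulus, such as T cell receptor signalling, growth factors or stress, and decay quickly. In T cells AP-1 acts with NFAT and NF-kB on activation genes, and tissue Tregs are known to carry more AP-1 transcripts than resting Tregs of lymphoid organs. The same genes are also known to be induced while a tissue is dissociated. The part of cell handling in the values below was not tested.

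The AP-1-high cells carried T cell and Treg transcripts. The 8 T cell markers were all detected, and their sum had a median of 4647 CPM (UMIs scaled to a total of 1000000) per AP-1-high cell and 3854 CPM per other cell. For 6 Treg markers the medians per cell were 6099 and 4005 CPM. AP-1-high cells were shallower, with a median of 5629 UMIs and 1932.5 genes, against 7607 UMIs and 2206 genes. Their median mitochondrial share was 4.14%, against 3.85%. Keratinocyte markers summed to 140 CPM in AP-1-high and 59.0 CPM in other cells, with 6 of 12 at 0 in AP-1-high cells, Krt5 and Krt14 among them, and a median of 0 per cell in both. For dendritic and Langerhans cells the sums were 508 and 465 CPM, mostly Cd74 (407 and 359 CPM), with Cd207 and H2-Aa at 0 in AP-1-high cells. For CD8 T and NK cells they were 252 and 198 CPM, led by Nkg7, and 5 of 9 markers were at 0. For innate lymphoid cells they were 1413 and 913 CPM, led by Il7r, which T cells also express. Il13, Il5 and Kit of that list were at 0 in AP-1-high cells. Macrophage, fibroblast, endothelial, mast, neutrophil, B cell, melanocyte, erythroid, gamma-delta T cell and nerve lists each summed to at most 38.1 CPM in AP-1-high and 50.7 CPM in other cells, and of the gamma-delta list 2 of 9 genes were in the table. The part of other cell types in the results was not tested. The Scrublet doublet caller marked 2 AP-1-high and 12 other cells, which were left in.

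Before the results, 2 features of the library need stating. Of the 271 kept barcodes, 26 were also kept in the dermal library, 5 of them AP-1-high, and 0 in the lymph node library. Profiles of the same barcode in both skin libraries had a median correlation across genes of 0.59, against 0.44 for different barcodes. These shared epidermal barcodes had a median of 16544.5 UMIs, and their dermal counterparts 1566.5. The library also mixed cells with Xist and cells with Y-linked transcripts. Xist without a Y-linked UMI was found in 54.4% of AP-1-high cells (37 cells, exact 95% interval 41.9 to 66.5%) and 34.5% of other cells (28 to 41.5%). Y-linked UMIs without Xist were found in 26.5% (18 cells, 16.5 to 38.6%) and 39.4% (32.6 to 46.5%). The part of this difference in the results was not tested beyond the split given at the end.

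Scores of AP-1-high cells ran from 1490 to 19057 CPM, with a median of 3340, against a median of 253 in other cells, of which 41 had no score UMI. The cut-off lay at 1487 CPM within a continuous range. The 3 cells just inside it had 1490, 1512 and 1520 CPM, and the 3 just outside 1484, 1415 and 1359. A score UMI fewer would have put 9 AP-1-high cells under the cut-off, and a score UMI more would have put 7 other cells at it. The class is therefore the upper end of a range, resting on a median of 16 score UMIs per cell (3 to 115).

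**Figure D1:**
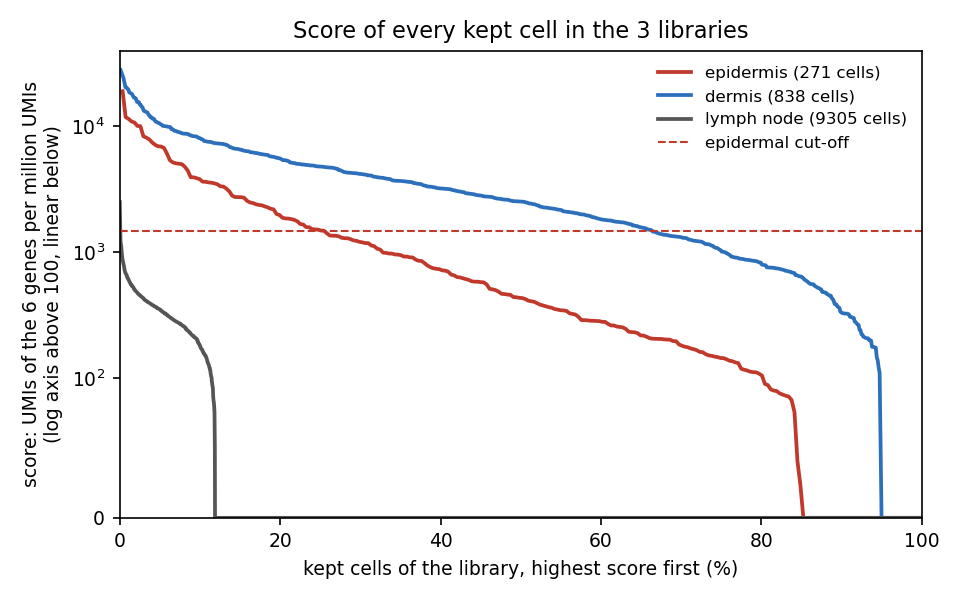
Score of every kept cell in the epidermal, dermal and lymph node libraries, with cells ordered from highest to lowest as a percentage of the library (x axis) and the score in CPM on an axis that is linear up to 100 and logarithmic above (y axis). The epidermal line crosses its cut-off of 1487 CPM (dashed) without a step, 66.2% of dermal cells lie at or above that value, and 6 lymph node cells do.

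Fos made up most of the score. It stood at 2259 CPM in AP-1-high cells and 148 CPM in other cells, had a UMI in 65 of 68 AP-1-high cells and was the leading score gene in 47 of them. Per AP-1-high cell, Fos ran from 0 to 14042 CPM with a median of 1571. Fosb, a close relative of Fos, stood at 635 against 63.5 CPM and led in 8 cells. Rgcc, a regulator of the cell cycle first described as a gene responding to complement, stood at 838 against 88.0 CPM. It led in 12 cells, and 28.5% of its UMIs came from 1 cell. The other score genes gave few UMIs: Fosl2 at 61.0 against 21.2 CPM, Atf3, a stress-induced ATF factor, at 61.0 against 4.46 CPM in 7 cells, and Irs2, an adaptor of the insulin receptor, at 50.8 against 9.47 CPM in 5 cells. A single cell held 70% of the Irs2 UMIs. Of the score UMIs of AP-1-high cells, 57.8% were Fos, 21.5% Rgcc and 16.3% Fosb.

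The 6 genes did not mark a single uniform set of cells. UMIs of 1 score gene were found in 6 AP-1-high cells, of 2 in 21, of 3 in 28, of 4 in 9, of 5 in 4 and of all 6 in 0. Scoring by Fos, Fosb, Fosl2 and Atf3 alone chose 68 cells, 60 of them AP-1-high by the full score. Scoring by Irs2 and Rgcc alone chose 68 cells, 35 of them shared, and 27 cells were chosen by both partial scores. Among AP-1-high cells the Spearman correlation of Fos with Rgcc was -0.34 and with Fosb 0.07. Over all 271 kept cells the same pairs stood at 0.17 and 0.45. These correlations are across cells of 1 library, share the cell total as denominator and, within AP-1-high cells, share the limit on the summed score. Each UMI was also assigned at random to 1 of 2 sets, with cells chosen on the first set and levels taken from the other. Fos was then 13.4-fold, Rgcc 7.69-fold, Fosb 7.20-fold and Fosl2 3.46-fold above the other cells. Atf3 was 11.1-fold above them on 7 and 3 UMIs, and Irs2 6.54-fold on 11 and 8. The same genes in the same cells made the choice, so these ratios describe it and are not a finding. Of the 68 cells chosen that way, 60 were AP-1-high by all UMIs.

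Promoters of 2 score genes and of 2 immediate early or effector genes that were higher in the same cells are shown with the motif that AP-1-related ATF and CREB factors are known to bind. The promoters shown all hold it, which was not so for every gene searched. They are the 250 bases before the start site in the RefSeq table of GRCm38.p6, read 5′ to 3′ on the gene's strand: Fos at chr12:85473640-85473889 (plus), Atf3 at chr1:191183334-191183583 (minus), Dusp1 at chr17:26508473-26508722 (minus) and Areg at chr5:91139349-91139598 (plus). Capitals mark TGACGTCA or its short form TGACGT, in Atf3 as the reverse complement ACGTCA.
Fos: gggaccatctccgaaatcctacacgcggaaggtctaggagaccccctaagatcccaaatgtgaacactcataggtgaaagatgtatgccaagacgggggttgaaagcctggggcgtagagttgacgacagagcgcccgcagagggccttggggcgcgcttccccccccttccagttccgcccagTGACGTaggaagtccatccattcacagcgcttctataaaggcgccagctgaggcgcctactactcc
Atf3: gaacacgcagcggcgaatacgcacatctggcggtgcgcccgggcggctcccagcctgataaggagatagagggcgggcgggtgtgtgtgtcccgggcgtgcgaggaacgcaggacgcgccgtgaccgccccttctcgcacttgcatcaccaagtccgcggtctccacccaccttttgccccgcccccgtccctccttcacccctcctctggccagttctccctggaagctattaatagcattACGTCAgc
Dusp1: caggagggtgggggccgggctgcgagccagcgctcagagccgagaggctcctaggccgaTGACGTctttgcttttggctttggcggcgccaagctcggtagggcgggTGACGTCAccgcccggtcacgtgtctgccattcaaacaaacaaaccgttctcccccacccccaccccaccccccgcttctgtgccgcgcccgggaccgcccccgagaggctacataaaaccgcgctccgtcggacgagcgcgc
Areg: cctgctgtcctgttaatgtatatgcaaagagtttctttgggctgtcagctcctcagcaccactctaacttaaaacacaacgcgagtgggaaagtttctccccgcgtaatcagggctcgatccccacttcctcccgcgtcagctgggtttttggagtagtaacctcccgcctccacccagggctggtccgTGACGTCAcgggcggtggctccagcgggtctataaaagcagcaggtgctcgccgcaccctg

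The short form began 66 bases before the start of Fos and 8 before that of Atf3, and the full palindrome 143 bases before Dusp1 and 61 before Areg. The search covered both strands of 300 bases per promoter and spelled out TGANTCA (the AP-1 element), TGACGTCA (the cyclic AMP element), TGACGT (contained in the latter, added after the sequences were seen) and the CArG box of serum response factor. The 300 bases were 250 before the start site and 50 after it, and sites further away were not searched. In that window none of the first pair of elements or of the CArG box was found for the 6 score genes. TGACGT was found there in 2 of 6. Outside the score, neither TGACGT nor TGACGTCA was found for Jun, Junb, Jund, Klf6, Gadd45b, Zfp36 or Klf4. Nr4a3 and a promoter of Nfkbid held TGACGT. A CArG box lay 58 bases before Zfp36. Among 509 matched genes counted as higher in AP-1-high cells, as defined in the next paragraph, 4.13% held TGACGTCA, against 3.74% of 2541 matched genes at 50 CPM or more and 2.03% of 27025 genes in the table. TGANTCA was held by 5.89%, 5.98% and 8.97%, the CArG box by 2.75%, 1.85% and 1.81%, and TGACGT by 14.3%, 14.9% and 8.37%. The shares in the higher genes lay close to those in all genes at 50 CPM or more.

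Outside the score, most of the 27 lists held more genes counted as higher than as lower in AP-1-high cells, as did all genes together. The highest list medians were those of immediate early (log2 0.92), residency (0.87), chemokine and lipid receptor (0.80) and activation genes (0.77). All genes at 10 CPM or more had a median of 0.13. The list of resting and lymphoid homing genes held more counted as lower, but its median was 0.17 without the resting Treg-like and cycling-like clusters described further on. The limit for counting a gene as higher or lower was a 1.5-fold ratio with 50 CPM or more in the higher class. Of 3278 genes at 50 CPM or more, 660 were higher in AP-1-high cells (20.1%) and 284 lower (8.66%). At 2-fold the numbers were 195 (5.95%) and 73 (2.23%). Here the median gene stood at a log2 ratio of 0.15, and the balance moved with the scaling. Of the counted genes, 69.9% were higher by CPM, 51.3% by median-of-ratios scaling (466 higher and 442 lower) and 43.6% when mitochondrial and ribosomal protein genes were left out of the totals (536 and 694). The limit of 50 CPM also stood for fewer UMIs in AP-1-high cells (393598 UMIs in all) than in other cells (1795299). Hps3 was counted as higher on 20 UMIs in AP-1-high cells, and Igfbp4 as lower on 91 in other cells. Higher counts can thus rest on fewer UMIs, and the part of this in the balance was not tested. List counts below are out of genes at 10 CPM or more, where the same 660 higher and 284 lower genes stood among 8220. Every list count is to be read against those numbers, and gene lists overlap: Dusp1, for example, is in 3 of them.

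AP-1 partners of the score genes were higher in AP-1-high cells. Junb, which pairs with Fos proteins, stood at 4268 CPM in AP-1-high and 1481 CPM in other cells, 2.88-fold higher (2.71 to 3.06). Per cell it ran from 0 to 14198 CPM with a median of 4452 in AP-1-high cells, and from 0 to 9504 with a median of 1066 in others. The classes overlapped, with 59 of 68 AP-1-high cells above the median of the others. Jund, the more constantly expressed Jun relative, was 2.25-fold higher, at 3041 against 1350 CPM, with medians per cell of 2706 and 1200. Jun, named after its values were seen, stood at 313 and 162 CPM and had a median of 0 per cell in both classes. Maf was 1.94-fold higher and Mafg 1.99-fold. Of 19 measured AP-1, CREB and ATF genes outside the score, 7 were higher and none lower, with a median log2 ratio of 0.74 against 0.13 over all 8220 genes at 10 CPM or more. When cells were thinned to 1500 UMIs and AP-1-high cells were chosen again on the thinned counts, which gave 89 and 173 cells, the median of this list was -0.04. Thinned ratios and list medians below come from these re-chosen classes, so depth and membership changed together, while thinned shares of cells keep the first choice of AP-1-high cells.

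A list of immediate early genes, which also holds genes known from tissue dissociation, gave the highest median of the 27 lists in all kept cells. It did so in 13 of 26 other settings, and was passed, for example, by glucocorticoid response genes after thinning (0.71 against 0.61) and by cytokine and residency genes in Xist-positive cells (1.01 and 0.91 against 0.61). Of 24 measured, 15 were higher in AP-1-high cells, none lower and 9 not counted, with a median log2 ratio of 0.92. Over 26 other settings the median ran from 0.61 to 1.27. Klf6, a zinc finger factor induced on stimulation, stood at 1156 against 337 CPM, 3.43-fold higher (3.03 to 3.88). In single AP-1-high cells it ran from 0 to 9027 CPM with a median of 894, and in other cells from 0 to 3460 with a median of 234. Values overlapped, and 60 of 68 AP-1-high cells lay above the median of the others. Gadd45b, a stress-induced regulator of MAP kinase signalling, was 3.71-fold higher (3.28 to 4.19), at 1227 against 331 CPM. Klf4, a relative of Klf6, was 4.43-fold higher (2.70 to 7.27) on 35 UMIs in 17 cells. Btg2, an antiproliferative gene, was 1.84-fold higher and Ppp1r15a, which ends the integrated stress response, 1.94-fold. Egr1, a further classic immediate early gene named after its values were seen, stood at 45.7 and 26.7 CPM, under the limit of 50 CPM.

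Next come phosphatases and regulators of mRNA decay. Dusp1 encodes a phosphatase that inactivates MAP kinases (chromosome 17, 26505590 to 26562128, mm10). It stood at 1789 against 539 CPM, 3.32-fold higher (3.01 to 3.66), with medians per cell of 1617 and 316 CPM and ranges of 0 to 6942 and 0 to 5287. Dusp2 was 1.76-fold and Dusp5 1.51-fold higher, and Dusp4 stood at a ratio of 1.23 (0.82 to 1.8). Of 10 phosphatase and MAP kinase feedback genes, 3 were counted as higher and none as lower, with a median of 0.64. Zfp36, which encodes tristetraprolin, a protein that destabilises AU-rich transcripts such as that of Fos, was 3.13-fold higher (2.75 to 3.57), at 1001 against 320 CPM. Its relative Zfp36l1 was 2.0-fold higher and Rc3h1, the RNA-binding protein Roquin, 1.91-fold (log2 -0.04 after thinning). Of 12 mRNA decay regulators, 7 were higher and none lower (median 0.67).

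NF-kB feedback genes showed the same direction. Nfkbia, the inhibitor that holds NF-kB in the cytoplasm, stood at 2444 against 1214 CPM, 2.01-fold higher, with medians per cell of 2005 and 641 CPM. Nfkbid was 3.52-fold higher, Nfkbiz 2.68-fold and Tnfaip3, the ubiquitin-editing enzyme A20, 2.71-fold. Of the 16 genes 8 were counted as higher, none as lower, and the median was 0.55, but with the 90th percentile of the score as the limit the median was -0.06. Among glucocorticoid response genes 7 of 14 were higher and none lower (median 0.71), with Klf9 at 2.84-fold and the clock gene Per1 at 2.80-fold. Among cyclic AMP response and RGS genes 8 of 17 were higher and none lower (median 0.71). Rgs16 was 3.06-fold and Rgs2 2.56-fold higher, both brakes on G protein signalling. Pim1, a kinase induced by cytokine signals, stood at 1809 against 785 CPM, and Cish and Socs3, inhibitors of cytokine signalling, were 1.91-fold and 2.28-fold higher.

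T cell activation and residency genes were higher as well. Cd69, an early activation marker that also retains T cells in tissue, stood at 1280 against 429 CPM, 2.99-fold higher (2.66 to 3.34). Per cell its median was 1026 CPM in AP-1-high and 380 CPM in other cells, with ranges of 0 to 6175 and 0 to 3182. After each cell was thinned to 1500 UMIs, 77.4% of 62 AP-1-high cells (65.0 to 87.1%) and 44.5% of 200 other cells (37.5 to 51.7%) had a Cd69 UMI, against 92.6% and 81.8% without thinning. The orphan receptor gene Nr4a3, induced by T cell receptor signals, was 3.42-fold higher, and Cd40lg, the CD40 ligand, 9.12-fold (5.84 to 14.5) on 62 UMIs in 10 cells. A Cd40lg UMI was found in 14.7% of AP-1-high and 11.3% of other cells, or 8.06% and 2.5% after thinning. Of its UMIs in AP-1-high cells 22.6% came from 1 cell. Of 19 activation genes 11 were higher and 1 lower (median log2 0.77). The lower one was Tnfrsf9, at 150 against 271 CPM. Of 13 residency genes 9 were higher and none lower (median 0.87). Itgae, the CD103 chain that binds E-cadherin on keratinocytes, was 1.56-fold higher at 668 against 428 CPM, and the chemokine receptor gene Cxcr6 3.06-fold. Cxcr6 had a UMI in 10 AP-1-high and 22 other cells, with 23.5% of its AP-1-high UMIs in 1 cell. At the 90th percentile Cxcr6 stood at a log2 ratio of -1.45. Of 17 chemokine and lipid receptor genes 8 were higher and none lower (median 0.80), led by Cxcr6 and by Gpr183, at 2.32-fold.

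Effector Treg genes were higher, while most of the Treg core differed little. Areg, which encodes the tissue repair factor amphiregulin, stood at 1222 against 377 CPM, 3.25-fold higher (2.88 to 3.65). Many cells had none: 30 of 68 AP-1-high (44.1%) and 67 of 203 other cells (33.0%) had a UMI, or 29.0% and 19.5% after thinning. Both medians per cell were 0, and the highest values were 13330 and 12983 CPM. The direction depended on the cells taken, with a log2 ratio of -0.61 at the 90th percentile of the score and of -0.29 in cells with Y-linked transcripts. Gata3, a transcription factor of skin Tregs, was 2.0-fold higher, Il1rl1, the interleukin 33 receptor, 2.65-fold, and Irf4 2.45-fold (log2 -0.04 at the 90th percentile). In all, 11 of 23 effector genes were higher and none lower (median 0.71), but the median was -0.04 at the 90th percentile. Ctla4 stood at 1659 against 1010 CPM, 1.64-fold higher (1.5 to 1.8). Foxp3 stood at 127 against 84.1 CPM, 1.51-fold higher (1.07 to 2.09), on 50 UMIs. Foxp3 reached 1.5-fold in 9 of 26 other settings and was not counted without the resting Treg-like and cycling-like clusters (log2 0.50), and a Foxp3 UMI was found in 35.3% of AP-1-high and 45.8% of other cells, or 19.4% and 15% after thinning. The interleukin 2 receptor chain Il2ra stood at 404 and 382 CPM (ratio 1.06, 0.885 to 1.26), Itgb8 at 61.0 and 57.4, and Ccr8 at 53.4 and 35.6 (ratio 1.5, 0.87 to 2.48). Of 19 core genes 2 were counted as lower, Izumo1r and Lrrc32, the latter with a log2 interval of -1.56 to 0.18. Counted as higher were 3, Ctla4, Il2rg and Foxp3, and the median was -0.01. Without the resting Treg-like and cycling-like clusters these 3 were not counted, with Ctla4 at log2 0.40 and Il2rg at 0.41.

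A few effector values rested on single cells. Ifng, the gene of interferon gamma, stood at 155 against 9.47 CPM, but 63.9% of its UMIs came from 1 of the 7 AP-1-high cells that had any. Furin, a protease that activates TGF-beta, was 3.85-fold higher with 35.1% of its UMIs in 1 cell. Of 14 cytokine genes 6 were higher and none lower, with a median of 0.56. In cells with Y-linked transcripts that median was -1.92, and in cells with Xist it was 1.01. Bcl2a1d (3.19-fold) and Bcl2a1b (2.02-fold) are near-identical paralogs, and their separate values are uncertain. Of the Bcl2a1d UMIs 50% came from 1 cell.

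Resting and lymphoid homing genes were lower. Bcl2, a survival gene of resting T cells, had 2 UMIs in 1 AP-1-high cell against 236 UMIs in 64 other cells, or 5.08 against 131 CPM, 25.9-fold lower (7.08 to 215). Ccr7, the lymph node homing receptor, stood at 20.3 against 169 CPM, 8.30-fold lower (4.16 to 19.4). Satb1, a chromatin organiser, stood at 20.3 against 80.8 CPM, and Izumo1r, a Treg folate receptor, at 30.5 against 261 CPM. Igfbp4 had 0 UMIs in AP-1-high cells and 50.7 CPM in others, and against a floor of 3 UMIs over the AP-1-high cells its log2 ratio was -2.73, while the exact interval of the ratio reached up to -2.41. Of 23 genes in this list 11 were lower and 2 higher (Il7r and Il6ra), with a median log2 ratio of -1.18. After thinning each cell to 1500 UMIs, Bcl2 was seen in 0 of 62 AP-1-high cells (exact upper limit 5.78%) and 16.5% of 200 other cells (11.6 to 22.4%), against 1.47% and 31.5% without thinning. Thinning left out 6 AP-1-high and 3 other cells. The sort held no cell type known to lack these genes, so the share that free RNA gives was not measured.

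Respiratory chain and proliferation genes had medians below 0. None of 22 oxidative phosphorylation genes was higher in AP-1-high cells and 4 were counted as lower, with all 22 ratios below 1 and a median log2 of -0.41. Over 26 other settings that median ran from -0.57 to -0.18. Ndufs6, a subunit of complex I, was 1.89-fold lower, Sdhb of complex II 1.78-fold, and Cox5b and Cox7a2 of complex IV 1.6-fold and 1.53-fold. In the thinned and re-chosen classes Cox5b stood at a log2 ratio of 0.12. Of 20 proliferation genes 6 were lower and none higher (median -0.79), but the direction of this median depended on the comparison, and it was 1.31 against the cells with a score of 0. In the heat shock list 3 of 16 were higher and 3 lower: Dnajb1 was 2.06-fold higher (log2 -0.36 after thinning), and the mitochondrial chaperonin pair Hspd1 and Hspe1 was 1.97-fold and 2.0-fold lower. The nucleotide enzyme gene Impdh2 and the ribosome assembly genes Nhp2 and Mrto4 were 3.86-fold, 4.90-fold and 5.15-fold lower, on 10, 6 and 4 UMIs. Among the highest ratios outside these lists were Gch1 (4.01-fold), Hps3 (3.97-fold), Arnt2 (3.87-fold), Utp23 (3.65-fold) and Plk3 (3.49-fold), each on 20 to 36 UMIs. Each met the limit of 50 CPM only in the AP-1-high class, where it was high. The same held for other genes named above, among them Klf4, Cd40lg, Nr4a3, Cxcr6, Klf9, Per1, Socs3, Mafg and Rc3h1. Bcl2, Ccr7, Satb1, Izumo1r, Impdh2, Nhp2 and Mrto4 met the limit only in the other cells. In other cells Gch1, Hps3, Arnt2, Utp23 and Plk3 stood at 18.4, 12.8, 18.4, 13.9 and 26.2 CPM.

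The remaining lists had medians nearer to that of all genes. In the TGF-beta pathway 5 of 16 genes were counted as higher and 1 as lower (median 0.41), and in JAK-STAT feedback 4 of 15 and none (0.39). Cell survival and death genes gave 4 and 1 of 16 (0.37), oxidative stress genes 2 and none of 14 (0.37), and actin, lamin and cytoskeleton genes 3 and 1 of 16 (0.34). In the last list Lmna, which encodes the nuclear lamins A and C, stood at 912 against 388 CPM, and Vim, the intermediate filament vimentin, at 4581 against 2602 CPM. Unfolded protein response genes gave 2 and none of 12 (0.30) and glycolysis 1 and none of 19 (0.20). FOXO and insulin feedback genes, chosen as the surroundings of Irs2, gave 4 and 4 of 20 (0.16). The kin of Rgcc gave 4 and none of 13 (0.09). Of 22 interferon response genes Irf1, Iigp1 and Igtp were higher and Isg15 lower (median -0.11).

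Levels over the score were graded rather than stepped for the immediate early genes. Kept cells were ordered by score into 4 groups of 68, 67, 68 and 68 cells, the last being the AP-1-high cells. From the lowest group up, Junb stood at 814, 1413, 2467 and 4268 CPM. Dusp1 stood at 342, 447, 921 and 1789 CPM, and Cd69 at 324, 364, 654 and 1280 CPM. Areg stood at 122, 488, 575 and 1222 CPM. Resting genes showed another course: Bcl2 stood at 167, 104, 120 and 5.08 CPM, and Ccr7 at 176, 157, 174 and 20.3 CPM. For both genes the AP-1-high group lay apart from the lower 3, which themselves differed by up to 1.6-fold for Bcl2. Il2ra had no order, at 294, 474, 381 and 404 CPM.

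**Figure D2:**
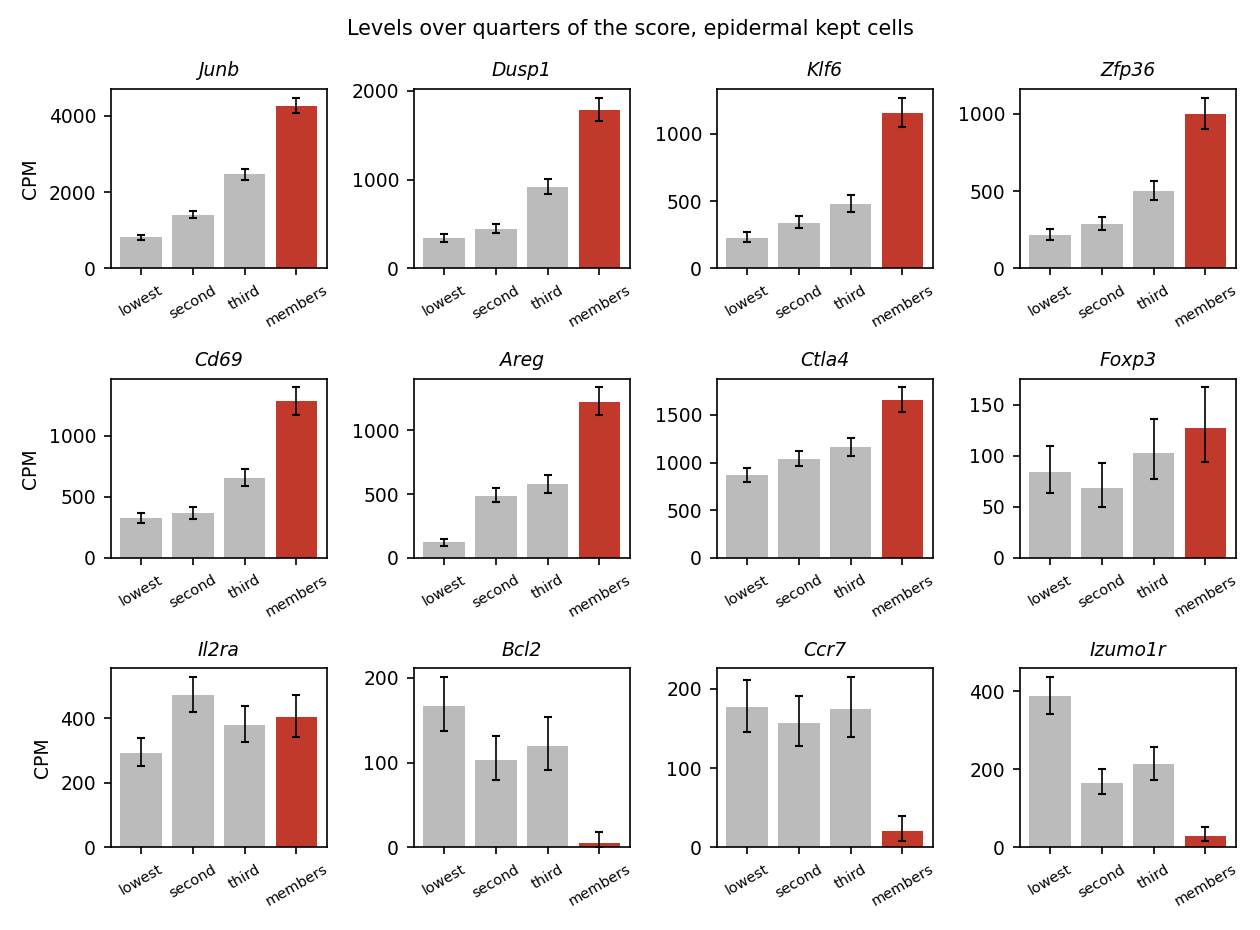
CPM of 12 genes (y axes, each starting at 0) in epidermal kept cells split into 4 groups by score (x axes), with exact 95% counting intervals and AP-1-high cells in red. Junb, Dusp1, Klf6, Zfp36, Cd69, Areg and Ctla4 were highest in the AP-1-high group, while Bcl2, Ccr7 and Izumo1r were lowest there, at 5.08, 20.3 and 30.5 CPM.

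Kept cells were clustered without the score genes and without the AP-1, immediate early and heat shock lists, 72 genes in all, to see where AP-1-high cells lay. Of 6 clusters, the marker rule named cluster 2 resting Treg-like (63 cells; 8 of 8 resting markers raised) and cluster 6 cycling-like (7 cells). The other 4 stayed unnamed and are given by their leading genes. AP-1-high cells made up 47.4% of cluster 5 (18 of 38 cells, exact interval 31.0 to 64.2%), led by Pnmal2, Cd40lg and Zfp607. They made up 34.8% of cluster 1 (24 of 69, 23.7 to 47.2%), led by Serpinb1a, Lgals3 and Ccr3, 28.9% of cluster 4 (13 of 45), led by Ccl4, Ifng and Penk, and 22.4% of cluster 3 (11 of 49), led by Pdzk1ip1, Alpk2 and Mt2. In the resting Treg-like cluster 1 of 63 cells was AP-1-high (1.59%, 0.04 to 8.53%). That cluster held 30.5% of the other cells and 1.47% of the AP-1-high cells.

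**Figure D3:**
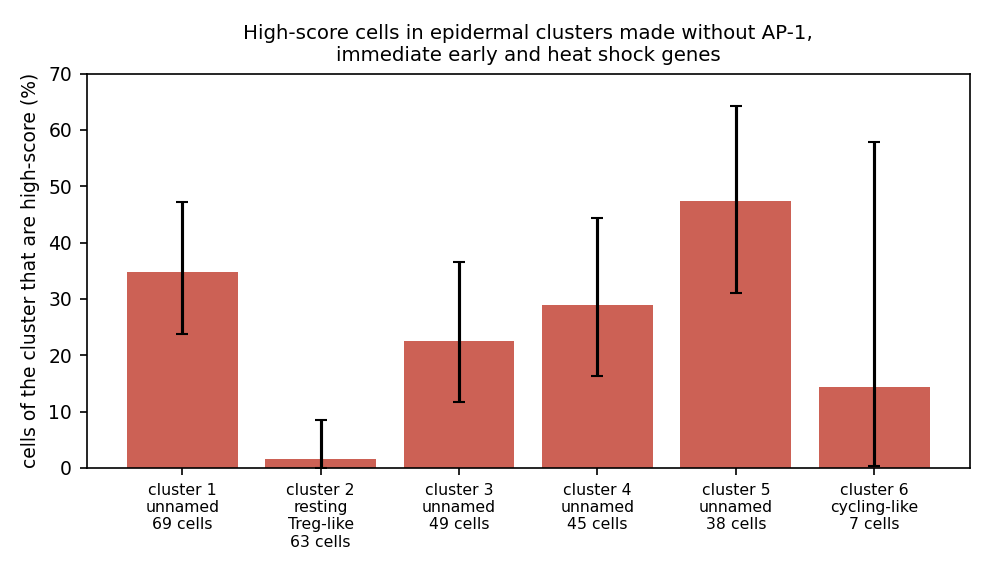
Share of AP-1-high cells in each of 6 epidermal clusters made without AP-1, immediate early and heat shock genes (bars, %, with exact 95% binomial intervals that cover counting error only). The resting Treg-like cluster of 63 cells stands at 1.59%, and the 4 unnamed clusters lie between 22.4% and 47.4%.

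Leaving out the resting Treg-like and cycling-like clusters, an alternative chosen after seeing the data, left 66 AP-1-high and 135 other cells. The counts became 500 higher (14.9%) and 394 lower (11.8%) of 3352 genes at 50 CPM or more. For list counts the same 500 and 394 stood among 8063 genes at 10 CPM or more. Immediate early genes kept a median log2 ratio of 0.90 and 15 higher, mRNA decay regulators 0.61, glucocorticoid response genes 0.60 and phosphatases 0.58. AP-1, CREB and ATF genes outside the score went from 0.74 to 0.44, with 4 higher and 0 lower. NF-kB feedback went from 0.55 to 0.33 (5 higher and 2 lower) and activation from 0.77 to 0.54 (8 and 3). Of the Treg core 0 were higher and 2 lower. The effector list went from 0.71 to 0.18, the chemokine and lipid receptors from 0.80 to 0.36, residency from 0.87 to 0.55 and the resting list from -1.18 to 0.17. Oxidative phosphorylation stood at -0.50. Among single genes Klf6 stood at 1.60, Cd69 at 1.47, Junb at 1.34 and Dusp1 at 1.33, while Bcl2 moved from -4.69 to -0.70 and Itgae from 0.64 to 0.15. Satb1 turned to 0.63, on 8 and 16 UMIs, and Lrrc32 to 0.30, while Igfbp4 had 0 UMIs in both classes. Areg stood at 1.15. Named genes no longer counted as higher included Ctla4 (0.40), Il2rg (0.41), Nfkbia (0.58) and Vim (0.34).

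Within each of the 4 unnamed clusters, AP-1-high cells were again compared with the other cells of the cluster. Junb was higher in all 4, with log2 ratios from 0.55 in cluster 5 to 1.47 in cluster 1, and Klf6 in all 4, from 0.84 to 1.78. Dusp1 (0.32 to 1.81), Zfp36 (0.63 to 1.61), Gadd45b (0.91 to 1.82), Cd69 (0.74 to 2.15), Pim1 (0.55 to 1.34) and Btg2 (0.49 to 1.32) were higher in all 4 too. The interval for Btg2 in cluster 4 included 0 (-0.20 to 1.19). Cox5b lay below 0 in all 4 (-0.85 to -0.57), on 28, 20, 15 and 14 UMIs in AP-1-high cells. In clusters 1, 3 and 5 its interval included 0. Ctla4 differed less, from 0.16 to 0.57. For other genes the values fell on both sides of 0. For Nfkbia, Lmna, Foxp3 and Itgae the intervals of the values below 0 included 0, so opposite directions were not shown. Nfkbia ran from -0.08 in cluster 5 to 1.39, Lmna from -0.45 in cluster 4 to 1.24 and Foxp3 from -0.22 in cluster 4 to 0.72. Itgae stood at 0.01, 0.63, 0.04 and -0.21 in clusters 1, 3, 4 and 5. Ccr7 was above the other cells in clusters 1 and 5, on 3 and 4 UMIs, and below them in clusters 3 and 4, on 0 and 1 UMIs. Of these Ccr7 intervals only that of cluster 3 lay clear of 0. Areg stood at 99.9 against 130 CPM in cluster 1, on 11 UMIs and with a log2 interval of -1.47 to 0.59. It stood at 2441 against 872 CPM in cluster 3 and at 793 against 213 in cluster 4. In cluster 5 it stood at 2089 against 1734 CPM, with an interval that included 0.

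**Figure D4:**
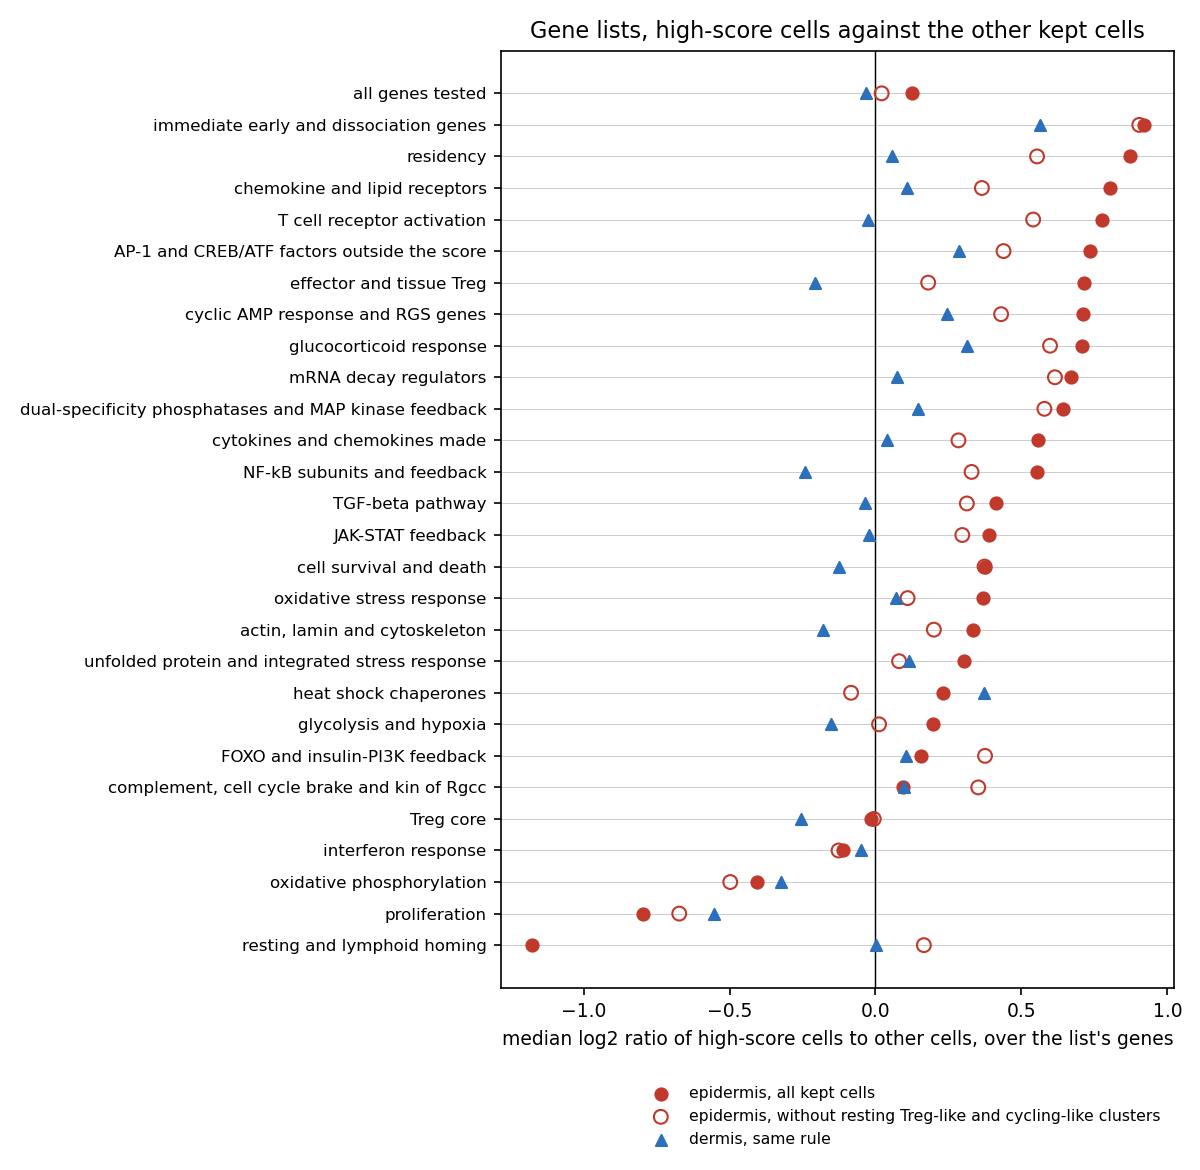
Median log2 ratio of AP-1-high to other cells (x axis) for all genes at 10 CPM or more and for 27 gene lists (y axis), in all kept epidermal cells (filled circles), without the resting Treg-like and cycling-like clusters (open circles) and under the same rule in dermis (triangles). Immediate early genes stand at 0.92, 0.90 and 0.56, while the effector list goes from 0.71 to 0.18 and -0.21.

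The same rule was applied to dermis with its own 75th percentile, which lay higher, at 4799 CPM. It chose 210 of 838 kept cells. At the epidermal cut-off 555 dermal cells (66.2%, 62.9 to 69.4%) would have been chosen. The counts in dermis rested on more cells and on 940284 UMIs in high-score cells, against 393598 in epidermis. The part of this difference in the counts of genes was not tested. In dermis 96 of 2952 were higher (3.25%) and 85 lower (2.88%), and at 2-fold 10 (0.339%) and 6 (0.203%). Without the barcodes shared with epidermis these counts were 98 and 91, and in thinned and re-chosen classes 227 and 267, against 895 and 514 in epidermis with fewer cells (89 and 173, against 209 and 606 in dermis). The immediate early median there was 0.56, and 11 of 24 such genes were counted as higher, none as lower. All 7559 dermal genes at 10 CPM or more held the same 96 higher and 85 lower. Zfp36 stood at 1576 against 637 CPM (log2 1.31), Klf6 at 2917 against 1372 (1.09), Klf4 at 309 against 157 (0.98), Dusp1 at 3711 against 1894 (0.97), Dusp2 at 485 against 256 (0.92) and Cd69 at 1562 against 837 (0.90). Junb, at 4498 against 3373 CPM (0.42), was not counted.

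Effector, activation and residency genes did not separate the dermal classes in the same way. Medians there were -0.21 for the effector list, -0.02 for activation, 0.05 for residency, 0.00 for resting genes and -0.24 for NF-kB feedback. Areg stood at 676 CPM in high-score and 784 CPM in other dermal cells, and Bcl2 at 12.8 and 6.4 CPM, on 12 and 23 UMIs. For oxidative phosphorylation the dermal median was -0.32, with 2 of 22 counted as lower and none as higher. Of the named genes outside the score with at least 50 dermal UMIs, 55 were higher in the high-score cells of both tissues, 28 were higher in epidermis and lower in dermis, 17 were lower in both and 6 were lower in epidermis and higher in dermis. The difference between the tissues was not tested. These named genes had been chosen on their epidermal ratios.

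**Figure D5:**
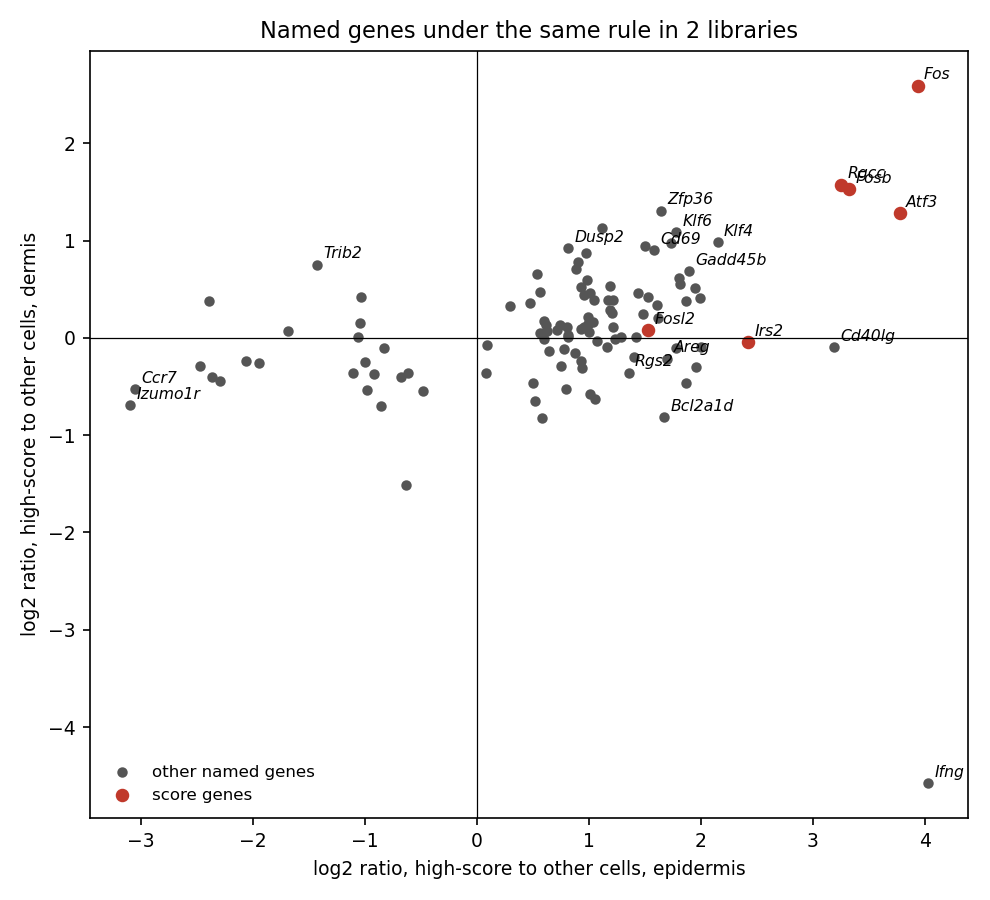
Log2 ratio of high-score to other cells in epidermis (x axis) and in dermis (y axis) for 112 named genes with at least 50 dermal UMIs; score genes are red. Zfp36, Klf6, Cd69 and Klf4 lie above 0 on both axes, Areg stands at 1.70 and -0.21, and Ifng at 4.03 and -4.57.

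In lymph node the rule met a different situation. Fos had 206 UMIs in the whole library, the 75th percentile of the score was 0, and the 1104 of 9305 cells chosen were those with any score UMI. Of their score UMIs 77.1% were Rgcc and 14.6% Fos, with 888 cells carrying Rgcc. At the epidermal cut-off 6 cells (0.0645%, 0.0237 to 0.140%) would have been chosen. The chosen cells were deeper, with a median of 3504.5 UMIs, against 2990 in the others. Of 2493 genes 16 were higher (0.642%) and 1 lower (0.0401%), and at 2-fold 3 (0.12%) and 0. Immediate early genes had a median of 0.19, under the highest list medians there, those of proliferation (0.70) and effector genes (0.50). Nfkbid stood at 56.1 against 30.2 CPM and Cd69 at 114 against 88.3 CPM. The lymph node class was chosen mainly by Rgcc, in a library made with another kit version, and its values are given beside the epidermal ones without a comparison.

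Xist-positive and Y-positive cells of the epidermis were also taken apart. Taking the 37 AP-1-high and 70 other cells that had Xist but lacked Y-linked UMIs, the immediate early median was 0.61, residency 0.91, activation 0.75, the effector list 0.36 and the resting list -0.74. Taking the 18 AP-1-high and 80 other cells that had Y-linked UMIs but lacked Xist, the same medians were 1.03, 0.76, 0.63, 0.63 and -0.64. Junb stood at log2 ratios of 1.00 and 1.77, Dusp1 at 1.31 and 2.09 and Cd69 at 1.62 and 0.98, while Areg stood at 1.14 and -0.29. Without the barcodes shared with dermis, 593 genes were higher and 217 lower in AP-1-high cells, and the immediate early median was 0.72. Of 101 named genes counted as higher or lower, 79 kept their direction in every one of 26 settings that gave a value, and 33 also stayed at 1.5-fold or more in each.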

How the data were processed

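Counts were raw UMI counts per gene and barcode, deposited without normalization. Whole numbers and unequal totals were checked in all 3 matrices. The submitters' processing notes name Cell Ranger and mm10, and the headers of both skin matrices, per the file headers, name version 4.0.0. For lymph node the version was not stated. Files held 360 epidermal, 1077 dermal and 9419 lymph node barcodes and 27998 genes. AP-1-high epidermal cells held 393598 UMIs and the other kept cells 1795299.

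UMIs were summed per class and scaled to CPM. Each log2 ratio was given an exact 95% binomial interval (Clopper-Pearson), and each level an exact Poisson interval. Both cover counting error only. A gene counted as higher or lower reached 1.5-fold with 50 CPM in the higher class, the 6 score genes left out. List medians used genes with 10 CPM in 1 class. Because each tissue had 1 library, no test was run. The ratio code was tested on simulated data.

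The members and the 27 functional and 19 marker lists were chosen with earlier results of these data known. Named genes were the score genes, 11 Treg genes, the 12 highest and 12 lowest ratios at 50 CPM (leaving out mitochondrial, ribosomal, predicted, receptor segment, sex-linked, haemoglobin, keratin and other-type genes, and genes with over 30% of their UMIs in 1 cell) and up to 4 per list. Gene positions are those of GENCODE on mm10. Clusters used 1500 variable genes, 20 components, 15 neighbours and Leiden resolution 1. Promoters came from RefSeq on GRCm38.p6, and 509 of 660 higher genes matched. Tools were Python 3.11.15, numpy 2.4.6, pandas 2.3.3, scipy 1.17.1, scanpy 1.11.5 and leidenalg 0.10.2. Alternatives changed the score, its percentile, depth, scaling, cell filters and cell subsets. Some genes are not reported here.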

Additional observations from a re-analysis of the deposited data

Results flagged for a closer look

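For 10 named genes that were counted as higher or lower in epidermis, the high-score cells lay above the other cells in 1 skin layer and below them in the other, with both counting intervals clear of 0. Here the epidermal log2 ratio is given first and the dermal one second. The difference between the layers was not tested, since each had 1 library, and the genes had been picked for their epidermal ratios. Ifng stood at 4.03 and -4.57, with 63.9% of its UMIs in AP-1-high epidermal cells from 1 cell, and 1 against 91 UMIs behind the dermal value. Areg stood at 1.70 and -0.21, the G protein brake Rgs2 at 1.36 and -0.36, and Ebi3, a chain of interleukin 35, at 1.05 and -0.62. The paralogs Bcl2a1d and Bcl2a1b, whose separate values are uncertain, stood at 1.67 and -0.82 and at 1.01 and -0.57, and 50% of the Bcl2a1d UMIs came from 1 cell. The interferon-induced GTPase gene Igtp stood at 0.79 and -0.52, and Myh9, a heavy chain of non-muscle myosin, at 0.75 and -0.29. In the opposite sense, Trib2 stood at -1.43 and 0.75, and Igfbp4 at -2.73 (against a floor of 3 UMIs) and 1.74, the latter on 7 and 8 UMIs.

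Epidermal barcodes left out for their mitochondrial share also carried score genes. The 57 barcodes that passed the UMI and gene limits but lay over 10% mitochondrial UMIs had score genes at 1423 CPM, against 976 CPM in kept cells. At a median depth of 1722 UMIs, 18 of the 57 reached the cut-off of the AP-1-high cells. Of the 271 kept cells 68 reached it, a share fixed by the percentile. The limit on T cell genes was not applied to the 57 barcodes, so they differ from kept cells in more than mitochondrial share.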

How the results depend on the processing

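No paired analysis was possible because each tissue had 1 library and no test was run. Depth limited single genes, most of which rested on under 100 UMIs in AP-1-high cells, and no setting measures the spread between animals. In 15 of 26 settings all 27 list medians stayed within the median bounds of their genes' counting intervals. Where a value below left its range or turned, the cause was not tested, except that stricter limits count fewer genes by construction.

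The 660 higher and 284 lower genes became 195 and 73 at 2-fold, 301 and 117 at 100 CPM, and 1954 and 1797 with 10 UMIs and no CPM limit. In cells with Y-linked transcripts they were 1147 and 542. The lower genes numbered 495 at the 90th percentile of the score, 514 after thinning to 1500 UMIs and choosing the cells again (89 and 173 cells; depth and membership both changed, here and wherever thinning is named), 442 with median-of-ratios scaling, 694 without mitochondrial and ribosomal protein genes in the totals and 468 in cells with a Foxp3 UMI.

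Among list medians (log2), AP-1 and CREB factors stood at -0.041 after thinning. At the 90th percentile T cell receptor activation stood at 0.42, residency at 0.40, effector genes at -0.040 and proliferation at 0.073. Outside the resting Treg-like and cycling-like clusters effector genes stood at 0.18 and resting genes at 0.17. Proliferation further stood at 1.31 against cells of score 0, at -0.15 in held-out UMIs, at 0.12 in Foxp3-positive, -0.072 in Xist-positive and -1.63 in Y-positive cells. By score it stood at -0.12 for the 4 AP-1 genes, -1.71 for Irs2 with Rgcc and -0.12 without Rgcc.

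Single genes that turned (log2) were, at the 90th percentile, Areg (-0.61), Bcl2a1d (-1.13), Cxcr6 (-1.45), Irf4 (-0.040), Nr4a2 (-1.02), Mt1 (-3.30), Rrm2 (0.59) and Birc5 (0.40), and at the 50th Iigp1 (-0.16). After thinning these were Dnajb1 (-0.36), Rc3h1 (-0.041), Socs2 (-0.97), Sqstm1 (-0.041), Cox5b (0.12) and Rrm2 (0.54). In Y-positive cells they were Areg (-0.29), Tnf (-0.89), Iigp1 (-0.83), Bnip3 (-1.12) and Mt1 (-2.77), and in Xist-positive cells Irs2 (-0.24) and Birc5 (0.021). In Foxp3-positive cells they were Iigp1 (-0.43), Bnip3 (-1.38), Mt1 (-1.34), Tuba1b (0.11) and Birc5 (0.0027). In held-out UMIs they were Pmaip1 (-0.52) and Birc5 (0.70), against cells of score 0 Rrm2 (3.25) and Birc5 (2.83), and by means per cell Mt1 (-0.14). With the 4 AP-1 genes as score they were Irs2 (-0.16), Birc5 (0.10) and Lag3 (0.078), and with Irs2 and Rgcc Iigp1 (-0.15) and Lrrc32 (0.058). Leaving out a score gene turned Irs2 (-0.17, without Irs2), Iigp1 (-0.090) and Tubb4b (0.11, both without Fos), Lag3 (0.070, without Fosb), and Birc5 (0.092) and Lag3 (0.074, both without Rgcc). Outside the 2 named clusters they were Lrrc32 (0.30) and Satb1 (0.63).

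In dermis, 43 genes were lower at the epidermal cut-off, and thinning gave 227 higher and 267 lower. In lymph node the epidermal cut-off, which left 6 cells, gave 1232 higher and 633 lower and a proliferation median of -0.44, and thinning gave 11 lower.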
